A study of Mus musculus with 4 samples.

Results

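Plasmacytoid dendritic cells (pDCs) are blood cells that sense viral nucleic acids in endosomes and can then release large amounts of type I interferon. They arise in bone marrow from myeloid and lymphoid progenitors under the E-box binding factor Tcf4, with Irf8, Spib and Runx2 among the other factors of the lineage. Mouse pDCs carry the receptor Siglec-H on their surface, and they lose the stem cell receptor Kit as they mature. They also carry the B220 form of CD45, an antigen that is commonly part of the antibody mix used to remove mature cells from progenitor preparations.

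Here the pDC-like cells are the barcodes of a single-cell RNA data set on sorted LSK cells (lineage-negative, Sca1-positive, Kit-positive bone marrow cells, the fraction with the stem cells and multipotent progenitors) that carried pDC RNA. The cells were counted in 4 libraries, each pooled from the bone marrow of 3 mice aged 9 to 12 weeks. Mice with the floxed allele alone (Nup358 fl/fl, called wild type in the labels) gave 2 control libraries, and Nup358 fl/fl CreERT2 mice gave 2 knockout libraries. In the latter a Cre expressed in all tissues was switched on by tamoxifen, so that the deletion was not restricted to blood cells. Per the study, mice of both groups received tamoxifen for 3 days and carry the floxed allele, and pooled mice cannot be separated within a library. A barcode was kept when it held at least 500 unique molecular identifiers (UMIs, each standing for 1 captured transcript), at most 10% of them from mitochondrial genes, and when no other library held the same barcode with 3 times its UMIs or more. The pDC-like cells were chosen by measured UMI counts of 6 genes. A kept barcode qualified when it held at least 1 UMI of Siglech, at least 2 UMIs of Tcf4, Bst2, Klk1 and Cox6a2 together, and none of the B cell gene Ms4a1.

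This gave 121 pDC-like cells among 14045 kept barcodes, from 25242 deposited. There were 7 in control 1, 0 in control 2, 40 in knockout 1 and 74 in knockout 2. Since control 2 gave no cell, every control value below rests on 7 cells of 1 library. The kept barcodes held 59036670 UMIs in control 1, 18854765 in control 2, 32736147 in knockout 1 and 53845257 in knockout 2. The pDC-like cells held 34274, 432107 and 502788 of these in control 1, knockout 1 and knockout 2. Their median size was 2735, 3534.5 and 2594 UMIs, against 6250, 17707 and 14398 UMIs for all kept barcodes of the same libraries. They were thus small beside the other cells in all 3 libraries. Mitochondrial RNA made up a median of 4.06%, 4.14% and 3.76% of their UMIs, against 2.99%, 3.49% and 2.86% over all kept barcodes. Libraries share barcodes on a large scale in this data set. A total of 10934 barcodes were left out as copies of a larger one, 5593 of them in control 2, and 6685 kept barcodes, 31 pDC-like cells included, had their barcode in another library too.

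The gate genes are given as a description, since they chose the cells. They stayed in the fits over all genes below, and no result is read from their rows. Siglech (ENSMUSG00000051504, GRCm38 chromosome 7, 55768178 to 55778925), the gene of Siglec-H, was at 408, 562 and 533 CPM (counts-per-million, the UMIs of a gene scaled to the same total in each class of cells) in the pDC-like cells of control 1, knockout 1 and knockout 2. In the other kept cells it was at 0.10 CPM over both knockout libraries, or 9 UMIs in 4898 cells. Klk1 (ENSMUSG00000063903, chromosome 7, 44225360 to 44229618), a kallikrein protease gene, was at 87.5, 315 and 322 CPM in the pDC-like cells, and again held 9 UMIs in those 4898 other cells. Cox6a2 (ENSMUSG00000030785, chromosome 7, 128205435 to 128206387), a subunit of cytochrome c oxidase, was at 554, 421 and 469 CPM, against 1.9, 4.3 and 4.4 CPM in the other cells. Siglech and Klk1 thus had few UMIs outside the gate, Siglech so by the rule itself. Cox6a2 was not confined to it, with 372 UMIs in 180 of the 4898 other knockout cells. Tcf4 and Bst2 were widespread. Tcf4 was at 817, 833 and 839 CPM, against 106, 115 and 109 CPM in the other cells of the same libraries. Bst2 (ENSMUSG00000046718, chromosome 8, 71534255 to 71537456), the gene of the tetherin antigen of mouse pDCs, was at 759, 1638 and 1768 CPM, against 250, 315 and 244 CPM.

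Tcf4 protein binds E-boxes, and the preferred E-box of E proteins is CAGGTG, which reads CACCTG on the other strand. Because 3 of the gate genes with an entry in the RefSeq promoter table (GRCm38.p6) hold these letters in the 250 bases before their start, the upstream sequences are shown, in the direction of the gene, with CAGGTG or CACCTG in capitals and other E-boxes left in lower case. Siglech spans chr7:55767934-55768183 on the plus strand, Klk1 chr7:44225110-44225359 on the plus strand and Bst2 chr8:71537473-71537722 on the minus strand.
Siglech: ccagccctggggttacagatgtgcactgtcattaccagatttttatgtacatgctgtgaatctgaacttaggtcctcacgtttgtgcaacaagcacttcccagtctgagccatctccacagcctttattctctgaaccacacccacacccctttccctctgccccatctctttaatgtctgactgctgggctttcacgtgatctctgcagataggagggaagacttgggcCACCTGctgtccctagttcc
Klk1: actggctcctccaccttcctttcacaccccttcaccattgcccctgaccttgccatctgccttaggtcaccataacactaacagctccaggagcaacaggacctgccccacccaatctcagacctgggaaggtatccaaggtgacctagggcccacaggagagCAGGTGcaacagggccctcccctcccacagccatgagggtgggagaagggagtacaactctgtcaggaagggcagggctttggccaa
Bst2: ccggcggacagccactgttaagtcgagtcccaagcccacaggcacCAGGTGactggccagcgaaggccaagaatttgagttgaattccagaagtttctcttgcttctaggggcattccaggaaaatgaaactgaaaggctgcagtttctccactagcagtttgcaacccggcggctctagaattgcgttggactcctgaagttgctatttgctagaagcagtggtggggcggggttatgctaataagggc

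This form of E-box began 20 bases before the start of Siglech, 87 bases before that of Klk1 and 205 bases before that of Bst2. Of 32851 promoter windows of the same length, 17.2% held CAGGTG on either strand, and 66.2% held the looser CANNTG, of which CAGGTG is one form. The window of Bst2 also held the core of the interferon-stimulated response element at 2 overlapping places, as 2.98% of windows did at 1 place or more on either strand. The core also stood at 3 places in the window of Cybb, at 1 in that of Cd300c and in some windows of Rnase6. It was not in the windows of Siglech, Klk1, Irf8, Spib, Ccr9, Pld4, Mpeg1, Lifr and Upb1. Outside the gate, CAGGTG stood in the windows of the chemokine receptor gene Ccr9 and of Cd300c, and in 1 of the 2 windows each of Irf8 and Lifr. It was not in those of Spib, Pld4, Mpeg1, Cybb and Upb1, nor in the 3 of Rnase6. These matches are letters in a window and show no binding.

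**Figure D1:**
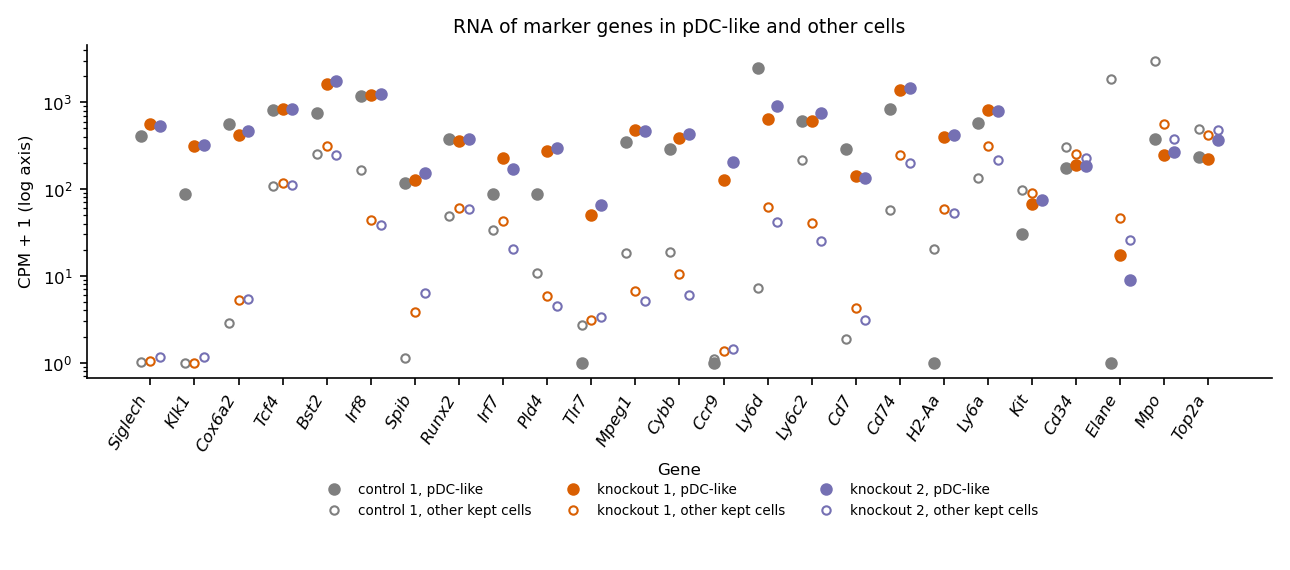
CPM plus 1 (log axis) of 25 genes in the pDC-like cells (filled) and the other kept cells (open) of control 1, knockout 1 and knockout 2. The pDC genes from Siglech to Cd7 lie well above the other cells in both knockout libraries, Kit and Cd34 lie near them, and Elane lies below. Control 1 rests on 7 cells.

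Among barcodes with Siglech the gate had a thin edge on the other genes, and it had a wide one on Siglech itself. Without Siglech, 9610 kept barcodes held at least 2 UMIs of Tcf4, Bst2, Klk1 and Cox6a2 together. These 4 genes alone thus selected little, and membership rested on Siglech. There were 103 kept barcodes with at least 2 UMIs of Klk1 and Cox6a2 together but none of Siglech or Ms4a1. Of 126 kept barcodes with Siglech RNA, 2 were left out for having a single UMI of the other 4 genes and 3 for having Ms4a1. The member with the fewest UMIs of those 4 genes had 2 of them, and its Siglech count was 1. The 3 barcodes with Ms4a1 had 6 to 32 UMIs of the 4 genes and 1 to 3 of Ms4a1. A single Siglech UMI qualified 24 of the 121 members, 4 of the 7 in control 1, 4 of 40 in knockout 1 and 16 of 74 in knockout 2. As a background for free RNA, Siglech was found in 1 of 190 cells of an erythroid gate (at least 1 UMI of Klf1 and 2 of Car1, median 15307 UMIs), and that cell was itself a member. In the knockout libraries it was found in 0 of 22 and 1 of 49 such cells (2.04%), too few to set a low background there. A monocyte and dendritic gate (at least 2 UMIs of Irf8 and 2 of Csf1r, Ly86, Ms4a6c and Ccr2 together) took in 47 cells with Siglech among 1940, of which 46 were members, so that gate is no background for pDCs, which carry Irf8 too. The members had a median of 2909 UMIs.

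The label was checked against genes that the gate did not use, again as a description. All 13 genes in the list of pDC transcription factors had a higher CPM in the pDC-like cells of both knockout libraries than in their other cells, beside 21.4% of all 19166 genes with a UMI. Irf8 (ENSMUSG00000041515, chromosome 8, 120736358 to 120756694), which is needed for the pDC lineage, was at 1167, 1220 and 1253 CPM in control 1, knockout 1 and knockout 2, and 98.3% of members held it. The other cells of these libraries had 166, 43.3 and 37.5 CPM. Spib, an Ets factor of pDCs, was at 117, 125 and 151 CPM, against 0.1, 2.8 and 5.4 CPM. Runx2, which helps pDCs leave the marrow, was at 379, 354 and 378 CPM, against 47.7, 60 and 57.9 CPM. The levels of Irf8 and Runx2 lay close together in the pDC-like cells of all 3 libraries. Id2, which opposes E proteins and favours conventional dendritic cells, is among the 13 and differed little, at 16.2 and 15.9 CPM in the knockout libraries against 15.7 and 13.6 CPM in the other cells.

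In the list for nucleic acid sensing and interferon, 14 of 20 genes were higher in both knockout libraries and 1 was lower. Over all 19166 genes with a UMI, 21.4% were higher and 38.5% lower. Of 1548 genes with at least 100 member UMIs, 561 were higher and 683 lower. Pld4, an endosomal nuclease, was at 87.5, 275 and 294 CPM in control 1, knockout 1 and knockout 2, against 9.8, 4.9 and 3.5 CPM in the other cells. Tlr7, the endosomal receptor for single-stranded RNA, was at 48.6 and 63.6 CPM in the knockout libraries and had no UMI in the 7 control cells. Tlr9, the receptor for unmethylated DNA, had 2 UMIs in all. Unc93b1, which carries these receptors to endosomes, was at 175, 208 and 215 CPM. Interferon RNA itself was nearly absent, with 1 UMI, of Ifnab, from 20 genes of type I and III interferons among 969169 UMIs, where 3 UMIs would be 3.1 CPM. Of 20 interferon-stimulated genes, 15 exceeded the other cells in both knockout libraries, and the one with the most UMIs was Ly6e at 988 and 1048 CPM against 481 and 365 CPM.

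Of 20 pDC surface genes, 19 were higher in both knockout libraries and the other was not, beside 21.4% of all genes with a UMI. Ccr9, the receptor that directs pDCs to the gut, was at 127 and 203 CPM in knockout 1 and knockout 2, against 0.4 CPM in the other cells of each. Cd209d, a C-type lectin gene, was at 60.2 and 135 CPM, and Klra17, which encodes the Ly49Q receptor, at 44.0 and 43.8 CPM. All of these had no UMI in the 7 control cells, whose 34274 UMIs put 3 UMIs at 87.5 CPM, above the levels of Klra17 and, in knockout 1, of Cd209d. Ly6d, a surface protein of lymphoid progenitors and pDCs, was at 2451, 639 and 903 CPM in control 1, knockout 1 and knockout 2, and Cd7 at 292, 139 and 133 CPM. Both were thus highest in the control cells.

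The 25 genes with the largest ratio to the other cells, taking the lowest of the 3 libraries and adding 5 CPM to both sides, were led by Siglech, Cox6a2 and Klk1. The first outside the gate were Cd7, the cytokine receptor gene Lifr, the perforin-like gene Mpeg1, Spib, Mctp2 and Cybb, the phagocyte oxidase subunit. Mpeg1 was at 350, 477 and 469 CPM, with a ratio of 16.0 in control 1, 45.0 in knockout 1 and 51.9 in knockout 2. Its level in the other cells was 17.2, 5.7 and 4.1 CPM, so that the ratio differed between libraries mostly on the side of the other cells. The 25 also held the cathepsins Ctsh, Ctss and Ctsb and the saposin precursor Psap, which 100% of members held. Psap was at 1225, 1333 and 1669 CPM, against 169, 128 and 131 CPM.

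**Figure D2:**
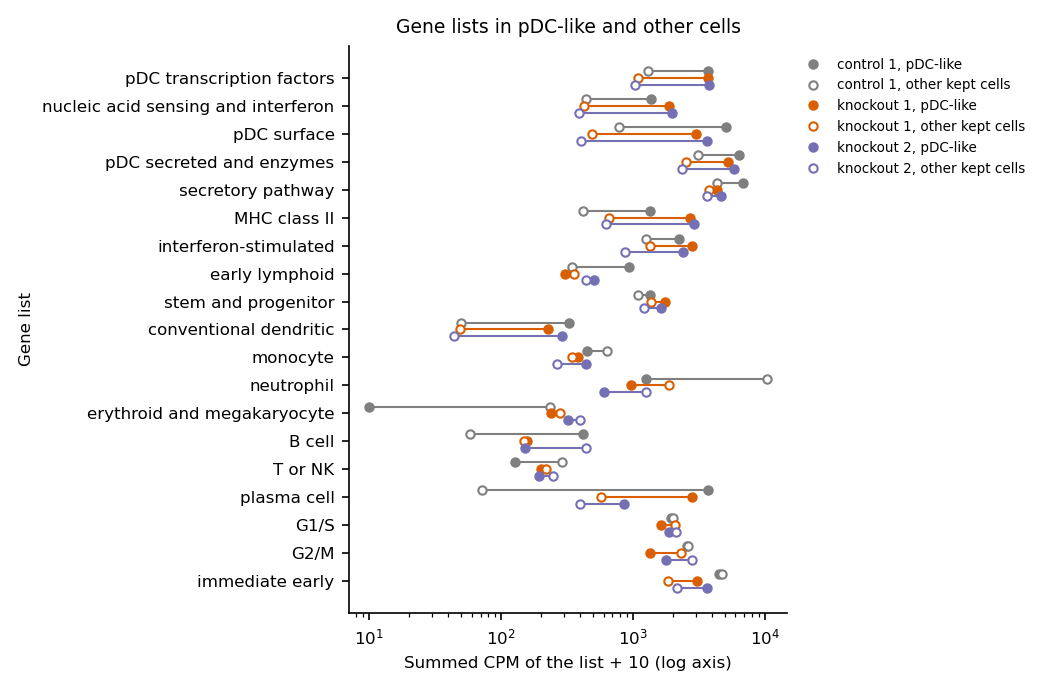
Summed CPM plus 10 (log axis) of 19 gene lists in the pDC-like cells (filled) and the other kept cells (open) of 3 libraries, joined by a line. The pDC, MHC class II and conventional dendritic lists lie above the other cells in all 3, and the neutrophil list lies below.

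Markers of other lineages were read as whole lists. Over all 19166 genes with a UMI, 21.4% were higher and 38.5% lower than in the other cells of both knockout libraries. Of 8 B cell genes, 1 was higher and 5 were lower in this way, and Pax5, Vpreb3 and Igll1 were at 0. The summed level of that list was 148 and 143 CPM in the pDC-like cells of knockout 1 and knockout 2, against 139 and 435 CPM in the other cells. In control 1 it was 408 CPM against 48.2 CPM. Over all members, the gene of this list with the most UMIs was Fcrla, with 59. In the T and NK list Cd3e, Cd3d, Cd3g and Ncr1 were at 0, the sums were 192 and 185 CPM against 210 and 239 CPM, and Nkg7 led with 98 UMIs. Among conventional dendritic genes Xcr1 and Zbtb46 were at 0 and Clec10a led with 116 UMIs. That list summed to 218 and 282 CPM, above the 38.8 and 33.7 CPM of the other cells, and 7 of its 10 genes were higher in both knockout libraries. The monocyte list summed to 377 and 432 CPM, above the 337 and 256 CPM of the other cells, but in control 1 it was below them, at 438 against 628 CPM. It was led by Lyz2 with 132 UMIs, while the defining receptor gene Csf1r had 2 UMIs. The neutrophil list summed to 965 and 597 CPM, against 1861 and 1241 CPM in the other cells. Prtn3 led it with 308 UMIs, Elane had 11, and Cebpe was at 0. Erythroid and megakaryocyte genes summed to 231 and 314 CPM, against 269 and 391 CPM in the other cells, and were led by Hbb-bt with 110 UMIs. The plasma cell list summed to 2796 and 841 CPM, above the 562 and 391 CPM of the other cells, most of it Jchain with 1621 UMIs in only 5 cells, 1 of which held 1133. At least 2 UMIs of Elane, Mpo and Prtn3 were found in 24 members, and at least 2 of Klf1 and Car1 in 3. The part of these cells in the results was not tested.

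Cells sorted as LSK should carry Kit and Sca1, the product of Ly6a. Ly6a was at 584, 815 and 784 CPM in the pDC-like cells of control 1, knockout 1 and knockout 2, against 133, 310 and 213 CPM in the other cells, and 81.0% of members held it. Kit was at 29.2, 67.1 and 73.6 CPM, against 96.0, 90.1 and 73.3 CPM. It was found in 29 of the 121 members, 1 of 7, 8 of 40 and 20 of 74. Cells were thinned to 2000 UMIs to compare them at 1 depth, which left out 1, 8 and 21 shallower members. Then 0 of 6 members in control 1, 0 of 32 in knockout 1 and 5 of 53 in knockout 2 (9.43%) held Kit, against 19.2%, 13.5% and 13.2% of the other cells. Before thinning the shares were 14.3%, 20.0% and 27.0% of members and 46.4%, 65.5% and 56.6% of the others. The knockout minus control difference in the thinned share was 4.72 points, with an exact permutation p = 1 over 1 control and 2 knockout libraries, where the smallest possible is 0.333.

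The members with Kit were large, and progenitor RNA divided the cells in 2 kinds. Kit, Cd34, Hlf and Meis1, genes of stem cells and early progenitors, gave at least 2 UMIs together in 39 members, and these 39 held every Kit UMI found. They were 2 of 7 in control 1, 10 of 40 in knockout 1 (25%) and 27 of 74 in knockout 2 (36.5%). Their median size was 32260.5 UMIs in knockout 1 and 13008 in knockout 2. The other cells of these libraries with progenitor RNA had medians of 19809 and 15500. The members without it had 3388 and 2112. The average UMIs per cell of 10 pDC genes outside the gate (Irf8, Spib, Pld4, Mpeg1, Ccr9, Cybb, Cd7, Lifr, Rnase6 and Upb1) were compared between the 2 kinds. In knockout 2 both kinds of member averaged 24.2 of these UMIs per cell, which was 1661 CPM with progenitor RNA and 10366 CPM without. The medians there were 27 with and 24 without. In knockout 1 the averages were 24.9 with and 39.3 without, and the medians 18.5 with and 41 without. Other cells with progenitor RNA averaged 1.43 and 0.962 of these UMIs in knockout 1 and knockout 2. The last comparison is a description, since several of the 10 genes are among the 25 largest ratios to the other cells.

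Single genes were compared as well. In the knockout libraries the helicase gene Mcm3 was found in 32 of 37 members with progenitor RNA and in 4 of 77 without, Top2a in 31 and 5, Gata2 in 20 and 1, and Mpo in 21 and 0. These counts compare cells of different depth. Scaled to depth, Mcm3 was at 270 CPM with and 24 CPM without progenitor RNA, and Top2a at 351 and 125 CPM. In the 4898 other cells Mcm3 was found in 84.4% and Mpo in 48.6%. Of the 39 members with progenitor RNA 22 held at least 2 UMIs of Elane, Mpo and Prtn3, against 2 of the 82 without. A barcode with a copy in another library was found for 29 of the 39, against 2 of the 82. Among all kept barcodes of at least 6000 UMIs such copies were common, at 91.1% of the others in knockout 1 and 87.1% in knockout 2, and below 6000 UMIs they were rare, at 0.483% and 0%. No doublet caller was run, and whether a barcode with both kinds of RNA held 1 cell or 2 was not tested. The shares, gene counts and thinned shares below are also given without these 39 cells.

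**Figure D3:**
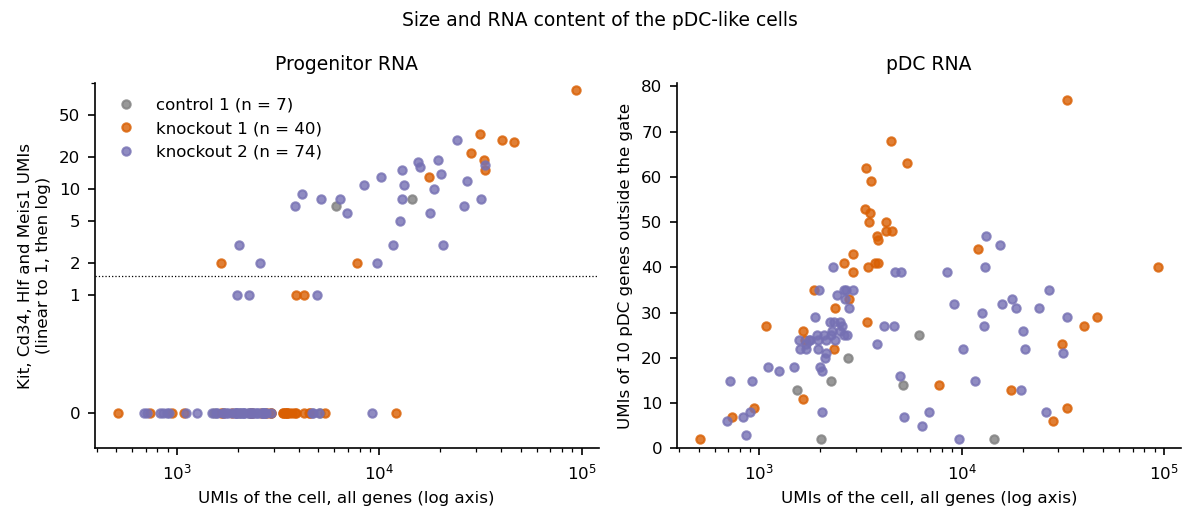
Each point is 1 of the 121 pDC-like cells, by its UMIs over all genes (log axis). Left, UMIs of Kit, Cd34, Hlf and Meis1 together, with a dotted line between 1 and 2. Right, UMIs of 10 pDC genes outside the gate. Small cells lie at or near 0 progenitor UMIs, and pDC UMIs are found over the whole range of sizes.

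The first comparison the design allows is the number of pDC-like cells by genotype. They made up 0.0894% of kept barcodes in control 1 (95% exact binomial interval 0.0359 to 0.184%) and 0 of 1201 in control 2, where a count of 3 would be 0.250% and the exact upper limit is 0.307%. They made up 2.52% in knockout 1 (1.80 to 3.41%) and 2.16% in knockout 2 (1.70 to 2.71%). These intervals cover counting error only. Both knockout libraries thus lay above both control libraries and their intervals did not meet. The mean was 0.0447% ± 0.0632 in control and 2.34% ± 0.251 in knockout libraries (SD, n = 2 each), a difference of 2.29 points with an exact two-sided permutation p = 0.333. That is the smallest p that 4 libraries allow, so no share could pass 0.05. Without the members with progenitor RNA the difference was 1.60 points. Among barcodes under 6000 UMIs the shares were 0.134%, 0%, 12.7% and 11.6%. These rest on 3730, only 48, 237 and 438 kept barcodes in control 1, control 2, knockout 1 and knockout 2. How far these unequal numbers of small barcodes set the shares was not tested. The labels do not say that libraries are independent beyond their pools of mice, and more pDC-like cells cannot be told apart from fewer of the other sorted cells.

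Barcode copies bear on both the control and the knockout side. In control 2, 6 of the barcodes left out as copies passed the gate, with 684 to 6066 UMIs. In all 6 the larger copy lay in a knockout library and was itself a pDC-like cell. In knockout 1, 0 of the 3161 barcodes left out as copies passed the gate, so leaving them out lowered only the number of other barcodes. With copies kept, the shares in control 1, control 2, knockout 1 and knockout 2 were 0.0761%, 0.0883%, 0.842% and 1.75%. The difference between genotypes was then 1.21 points. Of the 7 cells of control 1, 1 had a copy elsewhere.

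In some other classes too the shares of control and knockout libraries did not overlap, counted here without the pDC-like cells that also met their rules. The mature B gate (at least 1 UMI of Ms4a1 and 2 of Cd79a) held 0.0383%, 0.250%, 5.85% and 4.35% of the kept barcodes of control 1, control 2, knockout 1 and knockout 2. The plasma cell gate (at least 50 UMIs of Jchain) held 0.166%, 0.416%, 2.71% and 1.52%, and the pre-B gate (at least 2 UMIs of Vpreb1, Vpreb3 and Igll1 and 1 of Cd79a, with no Ms4a1) held 0.0638%, 0.333%, 0.692% and 3.68%. The monocyte and dendritic gate was lower in the knockout, with 18.4%, 16.2%, 10.2% and 2.78%. The T and NK gate (at least 2 UMIs of Cd3e, Cd3d, Cd3g and Ncr1) overlapped between genotypes, with 0.0638%, 0.749%, 1.26% and 0.643%, and so did the erythroid gate, with 1.30%, 1.42%, 1.38% and 1.40%. Over the 7 gates the smallest exact permutation p was 0.333, or 0.467 after Benjamini-Hochberg adjustment. A Kit UMI was found in 24% of pDC-like cells and 13.3% of cells in the mature B gate, with medians of 2909 and 1959.5 UMIs. It was found in 19.2% of the pre-B and 69.8% of the erythroid gate, which were deeper, with medians of 13435.5 and 15233 UMIs. How far the sort or the removal of lineage-positive cells set these shares was not tested.

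**Figure D4:**
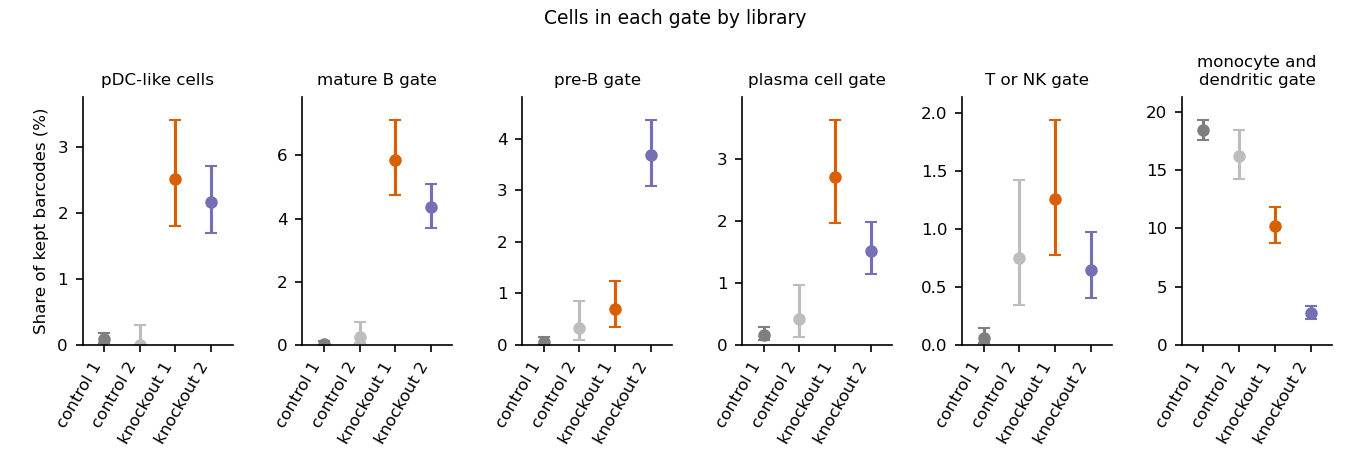
Share of kept barcodes (%) in each of 6 gates in the 4 libraries, with 95% exact binomial intervals, each panel on its own axis from 0. The pDC-like, mature B, pre-B and plasma cell shares are higher in both knockout libraries, and the monocyte and dendritic share is lower.

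The second comparison is of RNA levels within the pDC-like cells, with UMIs summed per library. Ranbp2, the gene of Nup358 (ENSMUSG00000003226, chromosome 10, 58446920 to 58494356), was at 175 CPM in control 1, 109 in knockout 1 and 133 in knockout 2, from 6, 47 and 67 UMIs. Its log2 fold change was -0.28 with an adjusted p of 0.975 in edgeR's quasi-likelihood test. Transcripts were counted at their 3′ end and a deletion elsewhere in the gene can leave that end, so this level does not check the labels.

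Of 6751 genes tested, 8 (0.119%) passed an adjusted p of 0.05 in edgeR's quasi-likelihood test, 4 higher in the knockout (0.0593%) and 4 lower (0.0593%), and 533 (7.90%) had an unadjusted p under 0.05. The fit compares 7 cells of 1 control library with 2 knockout libraries and has 1 residual degree of freedom. The spread thus comes from the knockout libraries alone, and the control is assumed to vary like them. That spread was pooled over genes, so a gene that differed between the knockout libraries could still pass. The calls therefore rank genes and test no spread between controls. Of the genes tested, 1370 had no UMI in the control cells. Under DESeq2 no gene passed, with 72 at an unadjusted p under 0.05. None passed under the stricter gate (at least 2 UMIs of Siglech and 4 of the other genes) or with copied barcodes kept, with 312 and 297 at an unadjusted p under 0.05 in edgeR. Without the members with progenitor RNA 54 of 2189 passed, 37 of them higher.

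Of the 21 gene lists, only that of antigen presentation by MHC class II had more than 1 call. In that list H2-Aa and H2-Ab1 were called, both higher in the knockout libraries than in the 7 control cells. The control arm is 1 library with no spread of its own, so these calls do not test that difference. Neither gene passed under DESeq2, the stricter gate or with copied barcodes kept. Of the 10 genes of the list 7 were tested. Their median log2 fold change was 1.13, beside 1.12 in the interferon-stimulated list and 0.28 over all genes tested. H2-Aa (ENSMUSG00000036594, chromosome 17, 34282744 to 34287823), the alpha chain of I-A, had no UMI in control 1 and 173 and 211 in knockout 1 and knockout 2. This was 400 and 420 CPM. Both libraries together had 411 CPM, at least 4.69-fold higher than the 87.5 CPM that 3 UMIs would be in the control cells. H2-Ab1, its beta chain, had 2, 144 and 239 UMIs, a ratio of 7.02 (95% counting interval 1.93 to 58.2). In the other kept cells H2-Aa was at 19.6, 12.7, 58.6 and 51.4 CPM in control 1, control 2, knockout 1 and knockout 2, so its level was also higher there in both knockout libraries. Cd74, the invariant chain that escorts these molecules, had 29 UMIs in control 1, and 28 of them lay in a single cell, the cell that also held 111 UMIs of Jchain. It was at 846, 1395 and 1452 CPM, and 31.0 CPM in control 1 without that cell. It did not pass the test.

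Slpi, a secreted protease inhibitor gene, fell by 3.07 on the log2 scale. It was at 2509, 74.1 and 428 CPM, but 71 of its 86 control UMIs lay in 1 cell, and without that cell control 1 was at 465 CPM, near knockout 2. Ctr9, a subunit of the Paf1 transcription elongation complex, fell by 2.49, with 11 of 14 control UMIs in 1 cell. Ly6d fell by 1.43, and 43 of its 84 control UMIs lay in 1 cell. Without that cell it was at 1281 CPM, above the 639 and 903 CPM of the knockout libraries. Cd93, a receptor of early progenitors and B cell precursors, fell by 2.30, from 350 CPM to 48.6 and 69.6 CPM. Its 12 control UMIs were spread over 5 of the 7 cells.

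The other calls were Gm8730 and Gm42418, which rose. Gm8730, a ribosomal protein pseudogene whose reads can be split with its parent gene, was at 29.2 CPM in control 1, 67.1 in knockout 1 and 1130 in knockout 2, and in the other cells at 57.2, 2585, 64.0 and 1889 CPM in control 1, control 2, knockout 1 and knockout 2. It followed the replicate number in the other cells, not the genotype. Gm42418, which overlaps a ribosomal RNA locus, was at 1138, 2722 and 2727 CPM.

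The other lists gave 1 call or none. Ly6d was the 1 call among 19 tested pDC surface genes. No gene passed among the 12 transcription factors (median log2 fold change 0.41), the 15 sensing and interferon genes (0.63), the 15 pDC secreted genes and enzymes (0.51) or the 18 interferon-stimulated genes (1.12). Secretory pathway genes had a median log2 fold change of -0.66 with no call among 15. The 17 tested G1/S genes (0.24), the 20 G2/M genes (-0.41) and the 9 tested genes for Nup358, HDAC3 and its corepressors (-0.20) had no call either.

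The third comparison asks whether the genotype difference in pDC-like cells differed from that in the other kept cells of the same libraries. In an edgeR model with the library as a block, 29 of 13548 genes (0.214%) passed an adjusted p of 0.05, 21 with a difference shifted upward (0.155%) and 8 downward (0.0590%). The gate gene Bst2 is 1 of the 21 and is not read, as its UMIs helped to choose the cells. The fit also has 1 residual degree of freedom, which comes from the knockout libraries, since control 2 had no pDC-like sum. Its control side is thus 1 library, and its calls rank genes only. The median of the fit over all genes was 1.39 on the log2 scale, and 0.06 over those with a UMI in the control cells, since 7357 genes had none there. The counts were 2 under the stricter gate, 44 with copied barcodes kept and 98 without the members with progenitor RNA.

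Among the upward calls were genes with a similar level in the pDC-like cells of both genotypes and a lower level in the other cells of the knockout. Irf8 was at 1167, 1220 and 1253 CPM in the pDC-like cells of control 1, knockout 1 and knockout 2. The other cells had 166 and 109 CPM in the controls, against 43.3 and 37.5 CPM in the knockouts. The log2 difference was 2.53. The surface gene Ly6c2 was similar, at 613, 602 and 748 CPM against 215, 175, 40 and 24 CPM, a difference of 3.35. The adaptor Tyrobp (1.53), Mpeg1 (2.67), Cybb (2.29) and the AP-1 gene Jund (1.98) also passed. Of these Tyrobp was not similar between genotypes in the pDC-like cells, at 2101, 1088 and 1456 CPM. Also shifted upward were Mpo, Prtn3, Ctsg and Elane of the neutrophil list, which were carried by few of the pDC-like cells, Prtn3 by 29 and Elane by 6. In control 1 a single cell held 11 of 13 UMIs of Mpo and 16 of 23 of Prtn3, and Elane had none. Under the stricter gate 1 upward call was left among all genes. That gate leaves out this cell and other members too, with 3, 36 and 58 left in control 1, knockout 1 and knockout 2. What the single cell contributed was not tested. The other cells had 3019 and 1541 CPM of Mpo in the controls, against 555 and 375 CPM in the knockouts.

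Among the downward calls, Ly6d, Jchain, Mzb1, Cd79a and Fcrla had a higher level in the other cells of the knockout. No gene of the early lymphoid list was called, while Slpi and Ctr9, from none of these lists, were. No test of a gene group was run. Ly6d had a log2 difference of -4.24, Mzb1 -5.59 and Jchain -3.70, all past the threshold in edgeR. The other cells had 6.3 and 13.5 CPM of Ly6d in the controls, against 61.4 and 41.3 CPM in the knockouts. For Jchain and Mzb1 the control level in pDC-like cells rested on 1 cell, with 111 of 111 and 13 of 14 UMIs.

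Cycling RNA was compared after thinning to 2000 UMIs. At least 3 UMIs of 20 G2/M genes were found in 2 of 6 pDC-like cells in control 1, 5 of 32 in knockout 1 (15.6%) and 17 of 53 in knockout 2 (32.1%). The other cells had 47.2%, 52.1% and 63.0%. All 20 genes were lower in the pDC-like cells of both knockout libraries, beside 38.5% of all genes. The knockout minus control difference was -9.48 points, with an exact permutation p = 0.667. Before thinning the shares were 28.6%, 22.5% and 33.8%. The members with progenitor RNA carried most of this. Without them G2/M RNA was found in 1 of 4 thinned cells in control 1, 0 of 23 in knockout 1 and 3 of 26 in knockout 2 (11.5%), a difference of -19.2 points.

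Early lymphoid RNA was counted as at least 1 UMI of Dntt, Il7r, Rag1 and Rag2 after thinning. Dntt encodes the terminal transferase of lymphoid precursors and Il7r the receptor for interleukin 7. It was found in 2 of 6, 8 of 32 (25%) and 20 of 53 (37.7%) pDC-like cells in control 1, knockout 1 and knockout 2, against 11%, 9.65% and 15.0% of the other cells. Rag1 and Rag2 had no UMI in any member. Of the whole list of 10 early lymphoid genes, 3 were higher and 4 lower in both knockout libraries, beside 21.4% and 38.5% of all genes. The list summed to 934, 299 and 497 CPM in the pDC-like cells of control 1, knockout 1 and knockout 2. The other cells had 338, 347 and 431 CPM. Il7r was at 175, 48.6 and 85.5 CPM, against 1.5, 3.3 and 8.2 CPM in the other cells, while Dntt was at 321, 37.0 and 135 CPM, against 85.0, 97.1 and 162 CPM, higher in control 1 and lower in the knockout libraries. The difference between genotypes was -1.97 points, with an exact permutation p = 1, and it changed sign under other settings. Before thinning the shares were 42.9%, 47.5% and 55.4%. Without the members with progenitor RNA they were 2 of 4, 8 of 23 (34.8%) and 15 of 26 (57.7%) after thinning.

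The pDC-like cells without progenitor RNA also varied among themselves, for example in antigen presentation. Cd74 was at 0 in 3 of 30 cells in knockout 1 and 10 of 47 in knockout 2, and had a median of 9.5 and 6 UMIs. H2-Aa was at 0 in 8 and 16 of these cells. Over cells, Cd74 and H2-Aa as shares of each cell's UMIs had a Spearman rho of 0.79 in knockout 1 and 0.86 in knockout 2. Klk1, a gate gene, was at 0 in 10 and 20 cells. Ly6c2 and the interferon regulator Irf7 had a rho of 0.51 and 0.41. These pairs were chosen after their values were seen, the cells of a library share its depth and free RNA, and counts per cell are small.

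**Figure D5:**
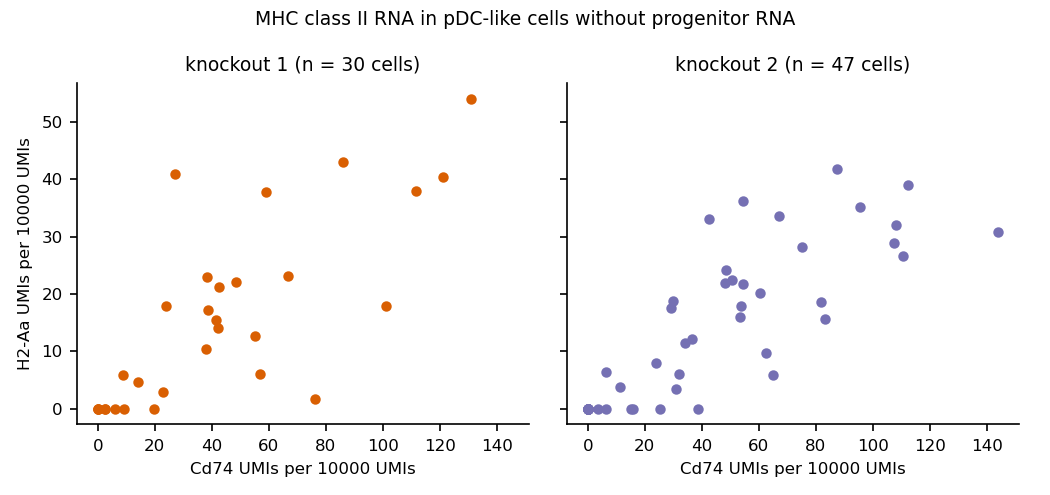
Cd74 (horizontal) and H2-Aa (vertical) UMIs, scaled to the same total in every cell, in each pDC-like cell without progenitor RNA, 30 in knockout 1 and 47 in knockout 2. Cells range from none of either to high levels of both, in both libraries.

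The 7 control cells were read one by one. They had 1529 to 14487 UMIs, 1 to 5 UMIs of Siglech and 4 to 21 UMIs of the other 4 gate genes. Klk1 was found in only 1 of them and Irf8 in 6. The cell without Irf8 was the cell with 111 Jchain UMIs, which had 28 of Cd74 and 11 of Ly6d. The largest had 16 UMIs of Prtn3 and 11 of Mpo, with 2 of Irf8. At least 2 UMIs of Elane, Mpo and Prtn3 stood in 3 of the 7, so that with the Jchain cell 4 of the 7 cells on which every control level rests held such RNA of another class.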

How the data were processed

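LSK cells of 4 libraries (10x 3′ chemistry) were analysed. The authors aligned the reads to mm10 (GRCm38) with Cell Ranger 3.1 and deposited raw UMI counts of 27998 genes per barcode, which were used as deposited. No doublet caller was run. The gate, the gene lists and the tests were chosen with earlier results of these data known. UMIs were summed per library and cell class, filtered for low counts with filterByExpr, scaled by TMM and tested with edgeR 4.0.16 (R 4.3.3), with Benjamini-Hochberg adjustment over all genes tested. Shares were compared by exact permutation of libraries (Python 3.11.15, numpy 2.4.6, scipy 1.17.1). Named genes were the gate genes, the members of 21 lists, the 25 largest ratios among genes with at least 100 member UMIs, the 10 largest changes past the threshold within these cells and the 10 smallest p of the third comparison. The ratio was taken over 3 libraries, as control 2 held no pDC-like cell, and gene tests used the sums of those 3. Any other gene was chosen after its values were seen. P-values rest on the spread between libraries, each pooled from 3 mice, and within the pDC-like cells on that between the knockout libraries alone. In the second comparison that spread was pooled over genes (infinite prior degrees of freedom). Gene p-values there thus do not measure a gene's own spread between libraries. Of the alternatives 58 were planned, and not all of these gave a result. A gene that was part of a list and of an alternative is not reported here. Counting intervals are exact, at 95%. In simulated data for the second comparison 57.0% of 200 genes changed 4-fold were found, and 99.0% of those changed 8-fold. For the third comparison these were 67.0% and 99.5%. False calls numbered 1 and 2 in the second comparison and 9 and 14 in the third. Only well-counted genes were changed, and every gene was given the same spread, as fitted to these data. Outlying single cells and further spread between controls were not simulated, so these shares do not measure power in the real data. Gene positions are from GENCODE on GRCm38. DESeq2 1.42.0 and matplotlib 3.10.9 were also used.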

Additional observations from a re-analysis of the deposited data

Results flagged for a closer look

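For the 10 genes with the smallest p in the third comparison, the genotype difference in the pDC-like cells was set against that in the other cells. The control side is 1 library of pDC-like cells, so the edgeR interaction test does not decide whether they differed. The log2 differences were -4.2421 for Ly6d, -3.6958 for Jchain, -2.9458 for Slpi, 3.3523 for Ly6c2, 2.5338 for Irf8, -5.5893 for Mzb1, 2.6732 for Mpeg1, 1.527 for Tyrobp, 1.9822 for Jund and 2.5763 for Mpo. The control value in pDC-like cells comes from 7 cells of 1 library for each of them, and a single cell, not always the same one, held 111 of 111 control UMIs of Jchain, 13 of 14 of Mzb1, 71 of 86 of Slpi and 11 of 13 of Mpo. Under the stricter gate only 2 genes were called in all. In control 2, which gave no pDC-like cell, 6 barcodes that had been left out as copies passed the gate, and all 6 had their larger copy in a knockout library.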

How the results depend on the processing

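The difference in the share of pDC-like cells kept its sign in every setting run. It ran from 1.21 points with copied barcodes kept to 12.1 points among barcodes under 6000 UMIs, whose numbers were very unequal between libraries. Leaving out each library gave 2.12 to 2.47 points. With the replicate number as a block the mean within-number difference was 2.29 points. Under the main rule no paired analysis was possible for genes because control replicate 2 gave no pDC-like cell. With copied barcodes kept, control 2 had 6 members, but no paired fit was run in that setting. Over all kept cells, libraries with the same number deviated from their group means in opposite directions (r = -0.16). With 2 libraries per group, the value for different numbers is the same with its sign turned (r = 0.16) and adds nothing. Nothing in the labels pairs the libraries. The crossed pairing could give no count of calls under the main rule, again because control 2 gave no cell. The 8 genes of the second comparison became 0 with copied barcodes kept, 0 under the stricter gate, 0 with DESeq2, 13 without a filter on low counts and 54 without members with progenitor RNA. The last setting was added after the data were seen, as was the one under 6000 UMIs. The 29 genes of the third became 44 with copied barcodes kept, 2 under the stricter gate, 98 without members with progenitor RNA and 28 without control 2. Leaving out control 1 or a knockout library left no residual degree of freedom for either. The difference in Kit share ranged from 0 to 9.43 points on leaving out a library. Without members with progenitor RNA it had to be 0, since Kit helps to define those members and they held every Kit UMI. For early lymphoid RNA it was 14.7 points with copied barcodes kept, 0.23 under the stricter gate, 8.6 with all UMIs, and -8.33 to 4.40 on leaving out a library. For G2/M RNA it was -17.7 to -1.26 points on leaving out a library and -19.2 to -0.43 points over the other settings. Leaving out cells with RNA of another class is not reported here. The causes were not tested. Depth limits all control levels, since 3 UMIs of the 7 control cells are 87.5 CPM.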

Other observations

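Immediate early genes were also measured. In the pDC-like cells Klf2 was at 175, 211 and 306 CPM in control 1, knockout 1 and knockout 2, against 103, 45.7 and 64.0 CPM in the other cells. Jund was at 759, 817 and 871 CPM, against 832, 293 and 329 CPM. The list as a whole summed to 3041 and 3634 CPM in the pDC-like cells of the knockout libraries, against 1833 and 2136 CPM in the other cells, and 9 of its 16 genes were higher in both, beside 21.4% of all genes. In control 1 the list summed to 4464 CPM in the pDC-like cells, below the 4735 CPM of the others. Lineage genes from outside the pDC lists were found in some members. Cd8b1, a co-receptor chain, was found in 22.5% and 8.11% of members in knockout 1 and knockout 2, and Klrd1, an NK receptor chain, in 25% and 29.7%, while Cd3e and Ncr1 were at 0. In the list for Nup358, HDAC3 and its corepressors, log2 fold changes ran from -1.20 for Hdac3 to 8.43 for Tbl1xr1, the latter with a standard error of 2.53. Hdac3 was at 87.5, 32.4 and 31.8 CPM in the pDC-like cells and Ncor1 at 263, 174 and 213 CPM. The control level of Hdac3 is that of 3 UMIs, too few to set a difference between genotypes.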
